A study of Mus musculus with 12 samples.

Results

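The genes described here encode the proteins of the cytosolic ribosome, as counted by RNA sequencing of mouse bone marrow-derived macrophages. The rule took protein-coding genes whose symbol marks a large-subunit (Rpl), small-subunit (Rps) or stalk (Rplp) protein or Rpsa, without the Rps6 kinases, at a mean of at least 1 CPM (counts scaled to a common library total) over the 12 libraries. Of 94 genes with such a name among the 54532 in the table, 86 reached that level, and all 86 were among the 13800 genes tested. They were 43 large-subunit genes, 31 small-subunit genes, 3 stalk genes, 4 paralogs (Rpl22l1, Rps27l, Rps27rt and Rpl7l1), 4 annotated as protein-coding under a pseudogene-style name (Rps12-ps3, Rpl9-ps6, Rpl10-ps3 and Rpl27-ps3), and Rps19bp1. The symbol of Rps19bp1 fits the rule, but the gene encodes a protein that binds Rps19 and is not part of the ribosome. The 2 members with the lowest levels were Rpl27-ps3 at 1.85 CPM and Rps10 at 2.79 CPM, and the highest of the 8 genes left out was Rpl36al at 0.72 CPM.

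The 4 groups were cKO with Pg, cKO control, cHet with Pg and cHet control, with 3 libraries each. cKO and cHet shorten the labelled genotypes Itga9-Lyz2-cKO and Itga9-Lyz2-cHet, whose names join Itga9, an integrin alpha subunit gene, with Lyz2, the lysozyme locus that carries Cre recombinase in myeloid cells of Lyz2-Cre mice. Going by these names, no group was free of Itga9 targeting. Marrow from femurs of 8-week-old male mice was grown into macrophages with 50 ng/mL M-CSF, and the Pg groups then received the agent labelled Pg for 2 h at a multiplicity of infection of 1:20. It is not stated whether replicates derive from different animals or dishes. P-values therefore measure the scatter among the sequenced libraries and nothing beyond it, and that scatter may be technical.

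The ribosome is built from ribosomal RNA and about equal numbers of copies of each ribosomal protein, so the transcripts of these genes are abundant and usually kept in proportion. Most of them begin with a 5′ terminal oligopyrimidine (TOP) tract, a cytosine followed by a run of pyrimidines, through which the kinase complex mTORC1 and the RNA-binding protein Larp1 adjust their translation and stability. In macrophages, bacterial products engage Toll-like receptors and mTORC1. A number of free ribosomal proteins, Rpl5, Rpl11 and Rpl23 among them, bind Mdm2 and thereby stabilise p53.

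To show this start motif, the RefSeq start region of each member was searched on the gene's own strand for a C at the annotated first base that opens a run of at least 5 pyrimidines (C or T). Of the 62 members in the promoter table, 14 (22.6%) had such a start, against 2.96% of the 26963 other genes in that table and 2.86% of the 9785 other tested genes. The lines below give 10 bases before and 20 bases from the annotated start (GRCm38.p6) of genes discussed in the results, with the pyrimidine run in capitals. Rps27l has no such run at its annotated start in this window, and many annotated starts lie some bases away from the tract. The genes shown are mostly ones with the run. Rpl24, Rpl39, Rpl41, Rpl23, Rpl34, Rplp0, Rps25 and Rps28, also discussed below, lacked it at their annotated starts and are not shown. Another annotated start of Rps21 lacked it as well.

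Rps27 (chr3:90213629-90213658, minus strand): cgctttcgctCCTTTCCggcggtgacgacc
Rps27rt (chr9:114982720-114982749, minus strand): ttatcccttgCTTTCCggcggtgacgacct
Rps10 (chr17:27635225-27635254, minus strand): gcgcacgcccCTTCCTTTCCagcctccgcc
Rps21 (chr2:180257369-180257398, plus strand): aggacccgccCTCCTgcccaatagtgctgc
Rps6 (chr4:86857348-86857377, minus strand): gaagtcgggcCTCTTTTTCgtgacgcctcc
Rplp2 (chr7:141447641-141447670, plus strand): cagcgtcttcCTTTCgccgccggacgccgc
Rps27l (chr9:66946076-66946105, plus strand): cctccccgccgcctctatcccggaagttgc

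Libraries held 14527674 to 16793803 counts. Itga9 had 13.6, 11.6 and 7.84 CPM in cKO Pg and 11.5, 5.98 and 6.42 CPM in cKO control libraries, against 19.4, 34.0 and 33.4 CPM in cHet Pg and 32.3, 17.9 and 18.9 CPM in cHet control libraries, on TMM-scaled totals. Every cKO library was below every cHet library. The log2 difference in Itga9 between cKO and cHet was -1.53 ± 0.37 in controls (adjusted p 0.0497). Under Pg it was -1.39 ± 0.36 and missed the 0.05 threshold (adjusted p 0.125). TMM (trimmed mean of M-values) sets the bulk of genes to no change; its factors lay between 0.906 and 0.931 in the Pg libraries and between 1.07 and 1.11 in the controls. Marker sums are CPM on library totals, without TMM. Macrophage markers summed to between 6590 and 8900 CPM in every library, and their median log2 change with Pg was 0.15 in cKO and 0.14 in cHet with TMM but -0.09 and -0.10 with library totals. Stromal markers summed to 1.24 to 3.06 CPM in the 6 cKO libraries and to 26.9 to 35.4 CPM in the 6 cHet libraries, so this list moved with genotype (all 6 of its tested genes were lower in cKO in both genotype comparisons). Lyz2 was also lower in cKO, by -0.99 ± 0.09 on the log2 scale in controls (adjusted p 6.39e-06) and -0.94 ± 0.09 under Pg (adjusted p 1.23e-05). With Pg, cell cycle markers summed to 761 to 788 CPM in cKO, against 645 to 733 CPM in cKO controls, and to 766 to 815 CPM in cHet, against 594 to 671 CPM in cHet controls. Mki67 made up the largest part, with TMM-scaled means of 531 and 392 CPM in cKO Pg and cKO control. In cHet these were 513 and 347 CPM. Under TMM 1 of the 10 genes rose with Pg in cKO and 2 in cHet, beside 16.9% and 18.0% of all tested genes. With library totals the counts were 0 and 1, beside 8.92% and 9.34%, and the list's medians were -0.07 and 0.06. Erythroid markers summed to 4.43 to 12.8 CPM in cKO Pg and 13.3 to 22.3 CPM in cKO control, and to 11.5 to 20.3 CPM in cHet Pg and 26.2 to 35.0 CPM in cHet control. The part of these markers in the results below was not tested.

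The 86 members together took 1.78%, 1.78% and 2.08% of all counts in the cKO Pg libraries, against 1.93%, 2.38% and 2.41% in the cKO control libraries. In cHet they took 2.10%, 1.84% and 1.81% with Pg, against 1.88%, 2.16% and 2.16% in controls. These shares averaged 1.88 ± 0.17% in cKO Pg and 2.24 ± 0.27% in cKO control, and 1.92 ± 0.16% in cHet Pg and 2.07 ± 0.16% in cHet control (SD, n = 3 each). Pg and control shares overlapped in both genotypes. On TMM-scaled totals the summed level was 20410 ± 1955 CPM in cKO Pg and 20494 ± 2240 CPM in cKO control, and 20969 ± 1982 CPM in cHet Pg and 19075 ± 1284 CPM in cHet control (SD, n = 3 each). So with TMM the cHet Pg mean was above its control, while the raw share was below it; in either case the difference was within about 1 SD of the groups.

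In each group 1 library stood apart from the other 2, in Itgax and in the ribosomal protein genes together. Itgax, which encodes the integrin alpha subunit CD11c, had 103, 121 and 48.0 CPM in cKO Pg and 125, 42.4 and 45.1 CPM in cKO control libraries, against 59.3, 137 and 132 CPM in cHet Pg and 115, 37.0 and 36.2 CPM in cHet control libraries. In all 4 groups the summed ribosomal protein level was lower in the libraries with high Itgax. In cKO Pg replicate 3, with low Itgax, 84 of 86 members lay above their group mean, with a median deviation of 0.18 on the log2 scale. In cKO control replicate 1, with high Itgax, 77 of 86 lay below it, with a median deviation of -0.20. The median deviation of all tested genes stayed between -0.007 and 0.013 in every library. High-Itgax libraries were 2 of 3 in both Pg groups and 1 of 3 in both control groups, so the Pg comparisons set unequal mixtures against each other. In bulk RNA, a different share of cells of some type and a different amount of RNA per cell cannot be told apart.

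**Figure D1:**
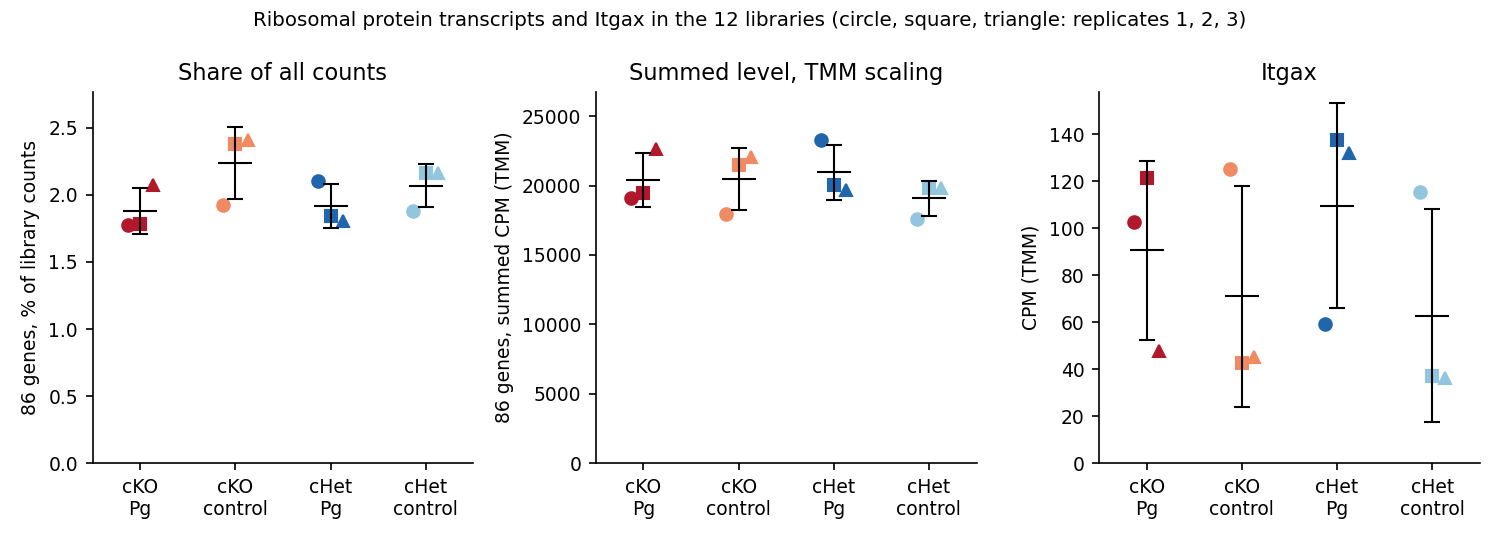
Share of all counts (left, %), summed TMM-scaled CPM of the 86 genes (middle) and Itgax CPM (right) in each library, by group; bars are mean and SD of 3 libraries. Within each group the library or libraries highest in Itgax are lowest in the ribosomal protein sum.

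On library totals, members ranged from 1.85 to 750 CPM, a 405-fold range, with a median of 221 CPM. Per kilobase of annotated exon length, also on library totals, the highest levels were those of Rplp1 (875 CPM per kb), Rps3a1 (525), Rplp0 (452), Rps15 (406) and Rpl8 (330), and the lowest those of Rps10 (1.21 CPM per kb), Rpl27-ps3 (3.90), Rpl13a (5.65), Rpl22l1 (6.13) and Rpl24 (6.57). Rplp1 and Rplp0 belong to the stalk that recruits translation factors, and Rpl13a also belongs, in human monocytic cells, to a complex that silences inflammatory mRNAs. The medians were 135 CPM per kb over the 31 small-subunit genes, 110 over the 43 large-subunit genes and 452 over the 3 stalk genes. Annotated exon length exceeded mRNA length in some members, such as Rps9 (2522 against 751 bases) and Rpl10 (2053 against 855 bases). These ranks and medians therefore hold for annotated exon length only.

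Mouse ribosomal protein genes have many processed copies, and how reads that match several places were counted is not given in the sources used here. In the GENCODE transcripts, a median of 32.7% of the 100-base windows of a member's mRNA also occurred, letter for letter, in another gene. More than 50% of windows were shared in 31 of the 85 members with a transcript, and none in 7, among them Rpl22, Rpl32, Rps3, Rps21 and Rps27l. The table held 391 genes annotated as pseudogenes of ribosomal proteins. Together they took 860 ± 97.6 CPM in cKO Pg and 976 ± 74.3 CPM in cKO control libraries, and 827 ± 82.1 CPM in cHet Pg and 886 ± 73.4 CPM in cHet control libraries (SD, n = 3 each, library totals). Of the 80 tested, 2 were higher and 1 lower with Pg in cKO under TMM, where 16.9% of all tested genes were higher and 17.1% lower. In cHet 5 were higher and 3 lower with Pg, where 18.0% of all tested genes were higher and 18.0% lower.

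Rps10 and Rpl24, both among the 5 lowest members, have such copies or overlapping genes. The processed pseudogene Rps10-ps2 (chr16:20822145-20822640) averaged 54.4 CPM on library totals, against 2.79 CPM for Rps10 itself (chr17:27630418-27636669, minus strand). The Rps10 locus is overlapped by the annotated readthrough gene RPS10-NUDT3, which is listed at 0 in all libraries and shares 47.7% of the windows of Rps10. Rpl24 (chr16:55966275-55971435, plus strand) shares 66.8% of its windows with the overlapping gene Gm28037, likewise listed at 0. Rpl13a shares 55.2% of its windows with the overlapping gene Gm45713, also listed at 0. The levels and changes of these members are uncertain where the counting could split reads between such genes.

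Rps27 and its retrogene Rps27rt are the extreme case. Rps27 (chr3:90212522-90213651, minus strand, coding bases 90212725 to 90213615) has 4 exons, and Rps27rt (chr9:114982366-114982739, minus strand, coding bases 114982453 to 114982707) has 1. Their coding sequences of 255 bases are identical, with 0 differences, and 98.4% of the windows of Rps27 mRNA occur in Rps27rt. The sequence is shown because a read that lies within it matches both genes, spliced in Rps27 and unbroken in Rps27rt. Capitals mark the base on each side of the 3 exon junctions of Rps27.

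Rps27 coding sequence (GENCODE, GRCm38): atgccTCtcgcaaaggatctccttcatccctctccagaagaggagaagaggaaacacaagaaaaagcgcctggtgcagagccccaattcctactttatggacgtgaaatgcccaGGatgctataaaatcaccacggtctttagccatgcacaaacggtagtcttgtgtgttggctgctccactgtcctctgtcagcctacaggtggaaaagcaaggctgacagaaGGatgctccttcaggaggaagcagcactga

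In cHet macrophages 15 of the 86 genes rose with Pg and 1, Rps27rt, fell, under TMM scaling and edgeR's quasi-likelihood test with Benjamini-Hochberg adjustment over all 13800 genes at 0.05. The 15 were 6 small-subunit genes (Rps10, Rps27, Rps28, Rps29, Rps21 and Rps25), 6 large-subunit genes (Rpl24, Rpl39, Rpl41, Rpl23, Rpl34 and Rpl29), the stalk gene Rplp0, the paralog Rps27l and Rpl27-ps3. That is 17.4% of members higher and 1.16% lower, where 18.0% of all tested genes were higher and 18.0% lower. The share of rises was thus near the background, and the members differed from it in how few fell. The median log2 change was 0.17 over the members and -0.007 over all tested genes, and 82 of 86 members had a positive sign, against 49.2% of all tested genes. Members shifted together within libraries, so the signs and falls of 86 members are not 86 independent observations. The count of rises depended on single libraries: it was 6 without cHet control replicate 1, 7 without cHet Pg replicate 1 and 8 without cHet control replicate 2, and Rps27rt was not called without cHet control replicate 1, cHet Pg replicate 1 or cHet Pg replicate 2. Over 20 alternative settings, Rps10 and Rpl24 kept their calls in all. Rpl39, Rps21 and Rps29 lost theirs in 1 setting each, Rps27l in 2, Rps27rt in 3, Rps27 and Rpl23 in 4 each, Rpl34 in 5, Rps28 in 6, Rpl27-ps3 in 9 and Rpl41 in 11. Rps25 lost its call in 5 settings, Rpl29 in 8 and Rplp0 in 10, and each of these 3 also changed sign in 1 other (library totals).

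Rps10, a small-subunit protein mutated in human Diamond-Blackfan anaemia, had 3.65, 2.89 and 2.34 CPM in cHet Pg libraries and 1.5, 0.87 and 0.996 CPM in cHet control libraries. The groups did not overlap, and the log2 change was 1.38 ± 0.29 (SE, adjusted p 0.00113). It rests on 52, 41 and 35 counts with Pg and 27, 15 and 16 in controls. Rps10-ps2 differed by 0.13 ± 0.15 (adjusted p 0.569). At its mean of 54.4 CPM on library totals, a shift of reads as small as the Rps10 change would not be seen there. Rpl24, which is mutated in the Belly spot and tail mouse, had 9.06, 6.34 and 10.5 CPM with Pg and 4.40, 5.71 and 4.73 CPM in controls, a change of 0.80 ± 0.19 (adjusted p 0.00269). The 2 groups did not overlap.

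Short small-subunit proteins formed the next set. Rps29, a zinc-binding protein, had 114, 108 and 104 CPM in cHet Pg and 69.7, 77.8 and 86.6 CPM in cHet control libraries, a log2 change of 0.47 ± 0.12 (adjusted p 0.00918). Rps28 changed by 0.49 ± 0.16 (adjusted p 0.0329) and Rps21 by 0.43 ± 0.12 (adjusted p 0.0114), and for all 3 genes the groups did not overlap. Among large-subunit genes Rpl39, whose protein lines the exit tunnel, had 135, 117 and 115 CPM with Pg and 85.9, 91.9 and 98.8 CPM in controls, a change of 0.41 ± 0.10 (adjusted p 0.00496). Rpl41, which encodes one of the shortest ribosomal proteins, changed by 0.36 ± 0.13 (adjusted p 0.0494), and Rpl23 by 0.35 ± 0.10 (adjusted p 0.016).

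Rps27l, a p53-inducible paralog of Rps27, shares none of its windows with another gene. It had 41.0, 35.8 and 36.0 CPM in cHet Pg libraries and 29.1, 30.0 and 30.6 CPM in cHet control libraries, a log2 change of 0.33 ± 0.08 (adjusted p 0.00231). Its within-group SD of 0.07 on the log2 scale was among the smallest of the 86 genes, whose median was 0.16. With Pg in cKO it had 32.7, 30.9 and 32.5 CPM, against 32.3, 33.1 and 31.0 CPM in cKO controls, and the groups overlapped (log2 change -0.003 ± 0.08, adjusted p 0.983).

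Rps27 had 132, 114 and 104 CPM in cHet Pg and 30.1, 42.7 and 65.6 CPM in cHet control libraries, while Rps27rt had 24.0, 25.8 and 28.5 CPM with Pg and 61.7, 48.6 and 46.3 CPM in controls. The changes were 1.34 ± 0.37 (adjusted p 0.0228) for Rps27 and -1.0 ± 0.28 (adjusted p 0.02) for Rps27rt. Since the genes share nearly all their sequence, their counts were also summed, which gave 156, 139 and 132 CPM with Pg and 91.7, 91.4 and 112 CPM in controls. Fitted as 1 gene under TMM, the sum rose by 0.53 ± 0.14 (adjusted p 0.00893), and the groups did not overlap. With library totals its change was 0.29 ± 0.14 and missed the threshold (adjusted p 0.109). The log2 ratio of Rps27rt to Rps27 was -2.15 ± 0.30 with Pg and 0.24 ± 0.77 in controls (SD, n = 3 each), a difference of -2.39 with no overlap. An exact permutation test of 3 against 3 libraries gave two-sided p = 0.1, the smallest it can give (0.4 after Benjamini-Hochberg adjustment over 16 paralog tests).

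**Figure D2:**
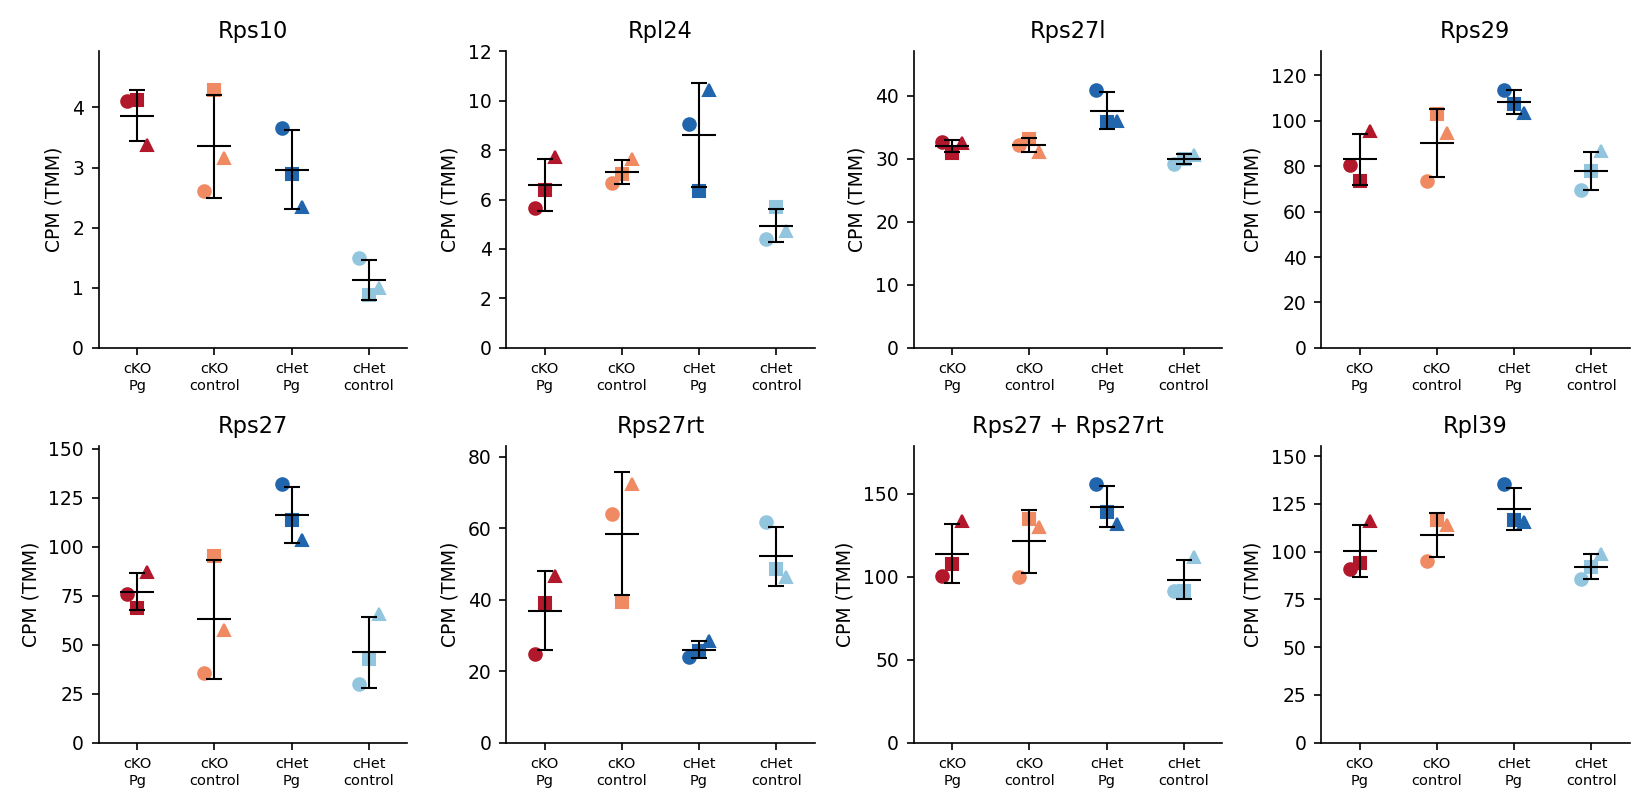
TMM-scaled CPM of named members in each library, by group; circles, squares and triangles are replicates 1, 2 and 3, bars are mean and SD of 3 libraries. In cHet, Rps27 is higher and Rps27rt lower with Pg, and their sum sits between 132 and 156 CPM with Pg and between 91.4 and 112 CPM in controls.

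Of the members named for their role, Rpl23 and Rplp0 passed in cHet. Rplp0, a stalk protein and common reference gene, had 856, 741 and 752 CPM with Pg and 663, 672 and 722 CPM in controls, a log2 change of 0.19 ± 0.07 (adjusted p 0.0486). With library totals in place of TMM its change was -0.05 ± 0.07 (adjusted p 0.575). Rps6, the substrate of the S6 kinases, had 395, 331 and 349 CPM with Pg and 278, 360 and 326 CPM in controls, and the groups overlapped (0.16 ± 0.14, adjusted p 0.406). Rpl5, Rpl11, Rps3, Rps19, Rpsa, Rplp1 and Rplp2 also missed the threshold. Rps27a, which encodes a fusion of ubiquitin and a ribosomal protein, had 179, 104 and 95.8 CPM with Pg and 177, 243 and 214 CPM in controls in cHet. The groups overlapped, and the log2 change was -0.74 ± 0.39 (adjusted p 0.182).

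In cKO macrophages 0 of 86 genes were higher and 0 lower with Pg under TMM scaling, where 16.9% of all tested genes were higher and 17.1% lower. At an unadjusted p under 0.05 there were 0 higher and 2 lower. DESeq2 called 0 higher and 1 lower. Without cKO control replicate 1 there were 4 lower, and without cKO control replicate 2 there were 1 higher and 2 lower. The median change was -0.015 over the members and -0.004 over all tested genes. Rps10 had 4.10, 4.13 and 3.37 CPM in cKO Pg and 2.62, 4.30 and 3.15 CPM in cKO control libraries, which overlapped. Rps29 had 80.4, 73.5 and 95.4 CPM with Pg and 73.6, 103 and 94.5 CPM in controls, with overlap. Rps27a had 86.1, 86 and 107 CPM with Pg and 207, 98.6 and 296 CPM in controls, a log2 change of -1.11 ± 0.40 (adjusted p 0.0627). The summed Rps27 and Rps27rt level was 101, 108 and 134 CPM with Pg and 99.7, 135 and 130 CPM in controls (-0.09 ± 0.13, adjusted p 0.663).

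**Figure D3:**
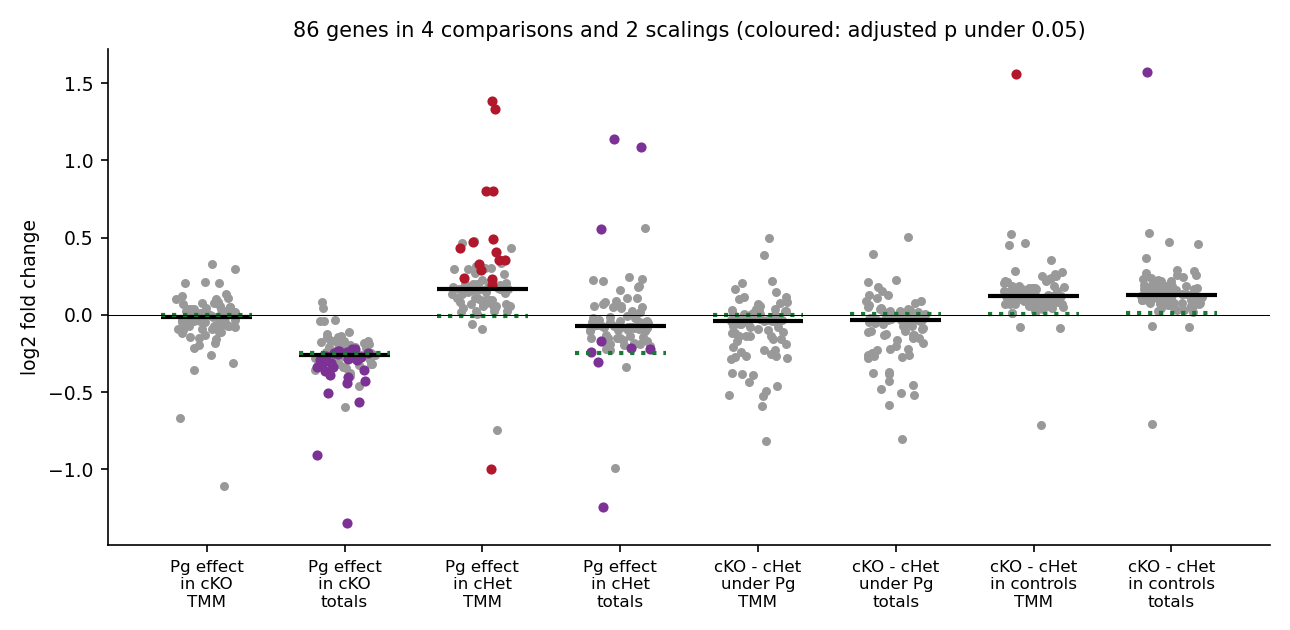
Log2 fold changes of the 86 genes in 4 comparisons, each with TMM and with library totals; coloured points have an adjusted p under 0.05, solid lines are member medians and dotted lines medians of all 13800 tested genes. With library totals the 2 Pg comparisons move down together with all genes (all-gene medians -0.25).

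The scaling set the level of the Pg comparisons and turned the sign of the cHet median. With library totals and no TMM, the median of all tested genes moved to -0.25 with Pg in both genotypes, and 39.4% of genes were lower and 9.34% higher in cHet. Among members 6 were then lower (Rps27rt, Rpl3, Rpl10, Rpl8, Rps2 and Rpl7l1) and 3 higher (Rps10, Rps27 and Rpl24) in cHet. In cKO 28 of 86 were lower and 0 higher, where 38.7% of all genes were lower and 8.92% higher. Relative to the median of all genes the members stood at 0.18 in cHet and -0.01 in cKO with either scaling. That likeness is no check of the values, since a change of scaling shifts all genes nearly alike. Rps10, Rps27, Rpl24 and Rps27rt were called in the same direction in cHet under both.

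**Figure D4:**
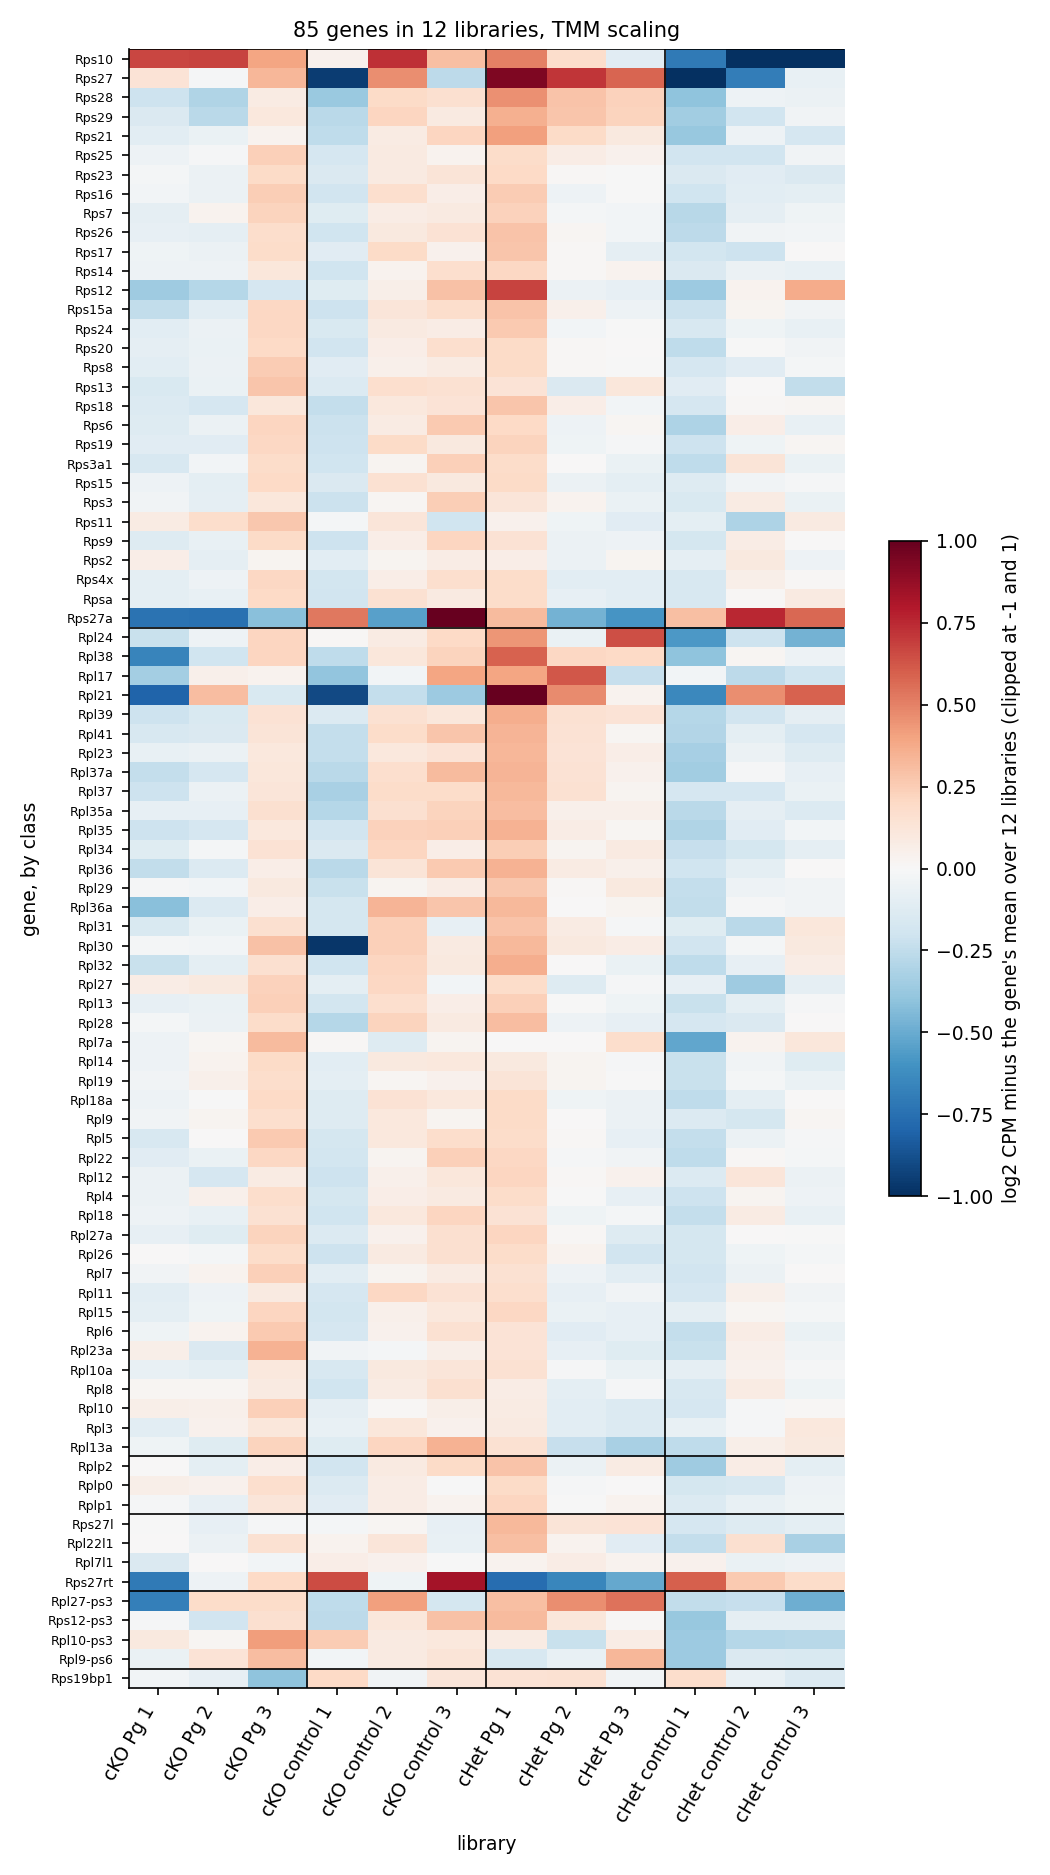
Log2 CPM (TMM) of 85 of the 86 genes in each library minus that gene's mean over 12 libraries, ordered by class from small subunit, large subunit and stalk to paralogs, pseudogene-named genes and Rps19bp1. Libraries such as cKO control 1 and cHet control 1 are low across nearly all rows, and Rps10, Rps27, Rps27a, Rpl21 and Rps27rt follow patterns of their own.

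In controls, cKO against cHet gave 1 higher gene, Rps10, and 0 lower, where 2.13% of all tested genes were higher and 3.02% lower. Rps10 had 2.62, 4.30 and 3.15 CPM in cKO control and 1.5, 0.87 and 0.996 CPM in cHet control libraries, without overlap (log2 difference 1.56 ± 0.28, adjusted p 0.00322). The counts were 44, 69 and 54 in cKO and 27, 15 and 16 in cHet. Rps10-ps2 differed by 0.21 ± 0.15 (adjusted p 0.534), and at its far higher level so small a shift of reads would again not be seen. Without cKO control replicate 1 there were 3 higher genes. The member median was 0.12 and that of all tested genes 0.003. With library totals the calls were 1 higher and 0 lower, beside 2.35% and 2.72% of all genes.

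Under Pg, cKO against cHet gave 0 higher and 0 lower, where 0.652% of all tested genes were higher and 1.20% lower (library totals: 0 and 0, beside 0.688% and 1.22%). At an unadjusted p under 0.05 there were 2 higher and 7 lower, and DESeq2 called 0 in either direction. Without cKO control replicate 1, which is outside this comparison but enters the shared estimate of the spread, 2 were lower. Without cKO Pg replicate 3 there was 1. The member median was -0.04. Rps27l had 32.7, 30.9 and 32.5 CPM in cKO Pg and 41.0, 35.8 and 36.0 CPM in cHet Pg libraries without overlap, and its log2 difference was -0.23 ± 0.08 (adjusted p 0.171).

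The interaction, which is the Pg change in cKO minus that in cHet, tests whether the responses differed. It called 0 members higher and 0 lower with TMM, where 0.457% of all tested genes were higher and 0.261% lower, and 0 and 0 with library totals, beside 0.420% and 0.290%. At an unadjusted p under 0.05, 0 were higher and 14 lower. DESeq2 called 0 higher and 1 lower. Without cKO control replicate 1 there were 5 lower, and without cKO Pg replicate 3 there was 1. The member median was -0.16, and 79 of 86 members had a negative sign, where 49.4% of all tested genes had a positive one. Because members shifted together within libraries, these signs too are not independent observations. The smallest p belonged to Rpl39 (-0.52 ± 0.14, adjusted p 0.124) and Rpl24 (-0.91 ± 0.26, adjusted p 0.13). A response in cHet that differs from that in cKO was therefore not shown at the threshold.

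Because Itgax varied within groups together with the members, the fit was repeated with the log2 level of Itgax in each library as a further term, a choice made after the data were seen. In that fit 65 of 86 members fell per doubling of Itgax, where 7.38% of all tested genes did, with a median of -0.16 per doubling. With Pg in cHet 65 members were then higher, beside 20.9% of all genes. With Pg in cKO 2 were higher (Rpl10 and Rplp0) and 2 lower (Rpl35 and Rpl36a), beside 20.7% and 20.2%. Between genotypes 27 were higher in cKO controls (5.61% of all genes) and 14 lower in cKO under Pg (3.40%). The interaction called 27 lower (2.54%), among them Rps28 (-0.76 ± 0.09, adjusted p 1.7e-06), Rps29 (-0.69 ± 0.09, adjusted p 1.66e-05) and Rpl39 (-0.60 ± 0.08, adjusted p 2.35e-05). The term was picked for its relation to the members in these libraries, so the counts are no independent evidence of a Pg or genotype effect.

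In cHet, members with short mRNAs had the larger median change with Pg. There the median log2 change with Pg was 0.33 over the 12 members with an mRNA under 500 nucleotides, 0.19 over the 18 of 500 to under 700, 0.16 over the 28 of 700 to under 1000, and 0.14 over the 27 of 1000 or more. Other protein-coding genes in the same classes had medians of 0.13 (n = 53), 0.15 (n = 161), 0.06 (n = 447) and -0.02 (n = 11041). In cKO the members' medians ran -0.10, -0.04, 0.007 and 0 over the same classes, and those of the other genes -0.10, 0.03, 0.01 and -0.008. The interaction's medians were -0.46, -0.22, -0.16 and -0.14 over members and -0.325, -0.14, -0.07 and 0.005 over the other genes, lowest in the shortest class in both sets. A length trend was also present without Pg. For cKO against cHet in controls the members' medians were 0.18, 0.14, 0.11 and 0.10 over the same classes. Those of the other genes were 0.17, 0.07, 0.04 and -0.01. Across the 85 members with a known length, Spearman's rho between length and change was -0.37 in cHet and 0.31 in cKO with Pg. For cKO against cHet it was -0.4 in controls and 0.33 under Pg. Pearson's r on log2 length was weaker in each, at -0.17, 0.20, -0.22 and 0.19 in the same order. These values are over genes that share the same libraries, and genes are not independent replicates. Libraries were selected for fragments of 370 to 420 bp, close to the full length of the shortest members (345 nucleotides at the least). The part of fragment size in these changes was not tested.

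**Figure D5:**
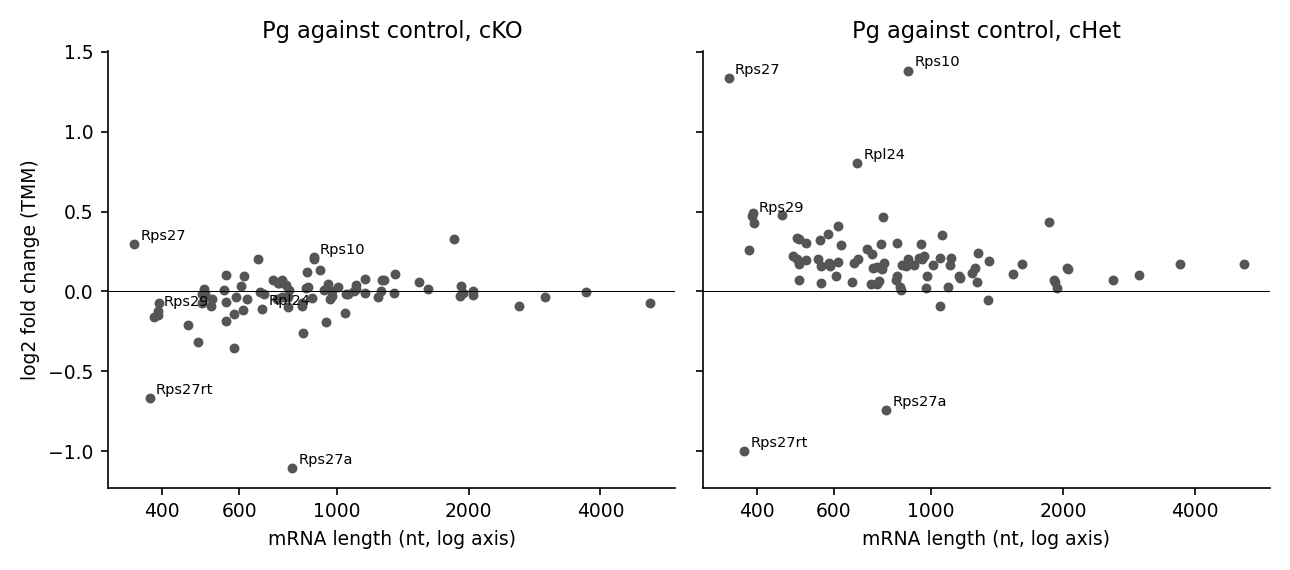
Log2 change with Pg (TMM) against mRNA length on a log axis, for 85 of the 86 genes, in cKO (left) and cHet (right). Short mRNAs lie above the rest in cHet (median 0.33 under 500 nucleotides) and slightly below 0 in cKO (median -0.10).

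Paralogs were compared with their parents by the log2 ratio of the 2 genes in each library, over 4 pairs and 4 comparisons. Rpl22l1, whose mRNA Rpl22 is known to repress, stood at -3.25 ± 0.08 relative to Rpl22 in cKO Pg and -3.27 ± 0.28 in cKO control, and at -3.25 ± 0.09 in cHet Pg and -3.33 ± 0.24 in cHet control (SD, n = 3 each). Rpl7l1 relative to Rpl7 was at -2.90 ± 0.12 in cKO Pg and -2.73 ± 0.13 in cKO control, and at -2.72 ± 0.15 in cHet Pg and -2.71 ± 0.15 in cHet control (SD, n = 3 each). Both pairs overlapped in every comparison. Rps27l relative to Rps27 was at -1.62 ± 0.09 with Pg and -0.55 ± 0.53 in controls in cHet (SD, n = 3 each), without overlap (exact permutation p 0.1, adjusted 0.4), which follows the uncertain counts of Rps27. Under Pg, cKO against cHet also lacked overlap, with differences of 0.365 for Rps27l and 1.05 for Rps27rt relative to Rps27. Each had exact permutation p 0.1 (adjusted 0.4). Both ratios overlapped with Pg in cKO and between genotypes in controls. Rpl7l1 had the smallest within-group SD of all members (0.05), and Rpl21 the largest (0.56).

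Of the genes named as pseudogenes, Rpl27-ps3 rose with Pg in cHet by 0.80 ± 0.30 (adjusted p 0.0423), on 32, 36 and 40 counts with Pg and 27, 26 and 20 in controls, and is the least counted member. All windows of Rps12-ps3 are also in Rps12, and 95.8% of those of Rpl10-ps3 in Rpl10, so their levels cannot be separated from the parents'. Rps19bp1 had 8.94, 8.61 and 6.88 CPM in cKO Pg and 10.5, 8.91 and 9.92 CPM in cKO control libraries, and 10.1, 10.1 and 8.91 CPM in cHet Pg and 10.3, 8.68 and 8.28 CPM in cHet control libraries. It passed in no TMM comparison.

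Genes that work beside the ribosomal proteins are given as counts over lists. Beside these counts, 16.9% of all tested genes rose and 17.1% fell with Pg in cKO, and 18.0% rose and 18.0% fell in cHet. With library totals 8.92% rose and 38.7% fell in cKO, and 9.34% rose and 39.4% fell in cHet. Of 20 translation factors and other TOP mRNAs, 2 rose with Pg in cKO and 4 in cHet and 0 fell in either, whereas with library totals 1 rose and 4 fell in cKO and 1 rose and 6 fell in cHet. The list's median log2 change was 0.07 in cKO and 0.10 in cHet with TMM, and -0.18 and -0.15 with library totals. Vim, which encodes the filament protein vimentin, averaged 1938 ± 49.2 CPM in cKO Pg and 889 ± 32.8 CPM in cKO control, and 2175 ± 88.8 CPM in cHet Pg and 956 ± 68.9 CPM in cHet control (SD, n = 3 each), log2 changes of 1.12 ± 0.06 in cKO and 1.19 ± 0.06 in cHet. Pabpc1, the poly(A)-binding protein, rose by 0.27 ± 0.06 in cKO (adjusted p 0.00402) and by 0.32 ± 0.06 in cHet (adjusted p 0.000865). Tpt1 and Eef1g passed in cHet, at 0.26 ± 0.08 and 0.18 ± 0.06.

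Among 13 genes of the mTORC1 pathway, 1 rose and 4 fell with Pg in cKO, and 2 rose and 5 fell in cHet (1 rose and 10 fell in each genotype with library totals). The TMM medians were -0.12 in cKO and -0.14 in cHet. Rheb, the GTPase that activates mTORC1, rose by 0.51 ± 0.09 in cKO (adjusted p 0.000174) and by 0.74 ± 0.09 in cHet (adjusted p 3.24e-06). Mlst8, an mTOR subunit, changed by -1.37 ± 0.19 in cKO and -1.28 ± 0.20 in cHet. Akt1s1, an inhibitory mTORC1 subunit, changed by -0.61 ± 0.09 in cKO and -0.76 ± 0.09 in cHet, and Tsc1, a repressor of Rheb, by -0.42 ± 0.07 in cKO and -0.67 ± 0.07 in cHet. Of 7 tested host genes of small nucleolar RNAs, 1 rose (Snhg15) and 2 fell (Snhg5 and Gas5) in cKO, and 2 rose (Snhg15 and Snhg6) in cHet, with TMM medians of -0.32 and -0.09. With library totals 1 rose and 5 fell in cKO, and 1 rose and 3 fell in cHet. Of 6 tested chaperones and adaptors of ribosomal proteins, 0 passed in cKO and 1 rose in cHet (Ltv1, 0.27 ± 0.10, adjusted p 0.0375), with TMM medians of -0.06 and -0.09. With library totals 0 rose and 2 fell in each genotype.

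The proteins of the mitochondrial ribosome are encoded by a separate set of nuclear genes. Of 77 tested, 1 rose and 19 fell with Pg in cKO, with a median of -0.15, and 3 rose and 10 fell in cHet, with a median of -0.09. With library totals, which lower all genes under Pg, 1 rose and 53 fell in cKO and 1 rose and 43 fell in cHet. Mrpl9 changed by -0.44 ± 0.10 in cKO and -0.69 ± 0.10 in cHet, and Mrpl39 by 0.45 ± 0.08 in cKO and 0.49 ± 0.08 in cHet. Between genotypes, 0 of the tested genes in these 4 lists and the mitochondrial set passed under TMM, in controls or under Pg.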

How the data were processed

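The deposited table holds unnormalised counts for 12 libraries beside each gene's position and exon length (other annotation). The submitters' processing notes name mm10 as build and, as tools, featureCounts 1.5.0-p3, HISAT2 2.0.5 and fastp. Strand, multimapping and annotation release are not given there. Per the labels' protocols, poly-A RNA was primed with random hexamers.

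In edgeR 4.0.16 (R 4.3.3), filterByExpr left 13800 genes. Each of the 4 groups got its own mean in a single fit of the 12 TMM-scaled libraries, tested by the robust quasi-likelihood F test with Benjamini-Hochberg adjustment over all tested genes (threshold 0.05). This test gives every adjusted p of a gene printed without another tool's name; ± beside a log2 change is its standard error. CPM per library are TMM-scaled unless library totals are named; the membership rule, mean and per-kb levels, and marker sums use library totals. The procedure was tested on simulated data with known fold changes. Genes were drawn independently there, without the shifts that members shared within libraries, so it does not check p-values under such shifts. Sequences are from GENCODE M21 and RefSeq; windows are 100 bases long. A few items are not reported here. Members and lists were chosen with earlier results of these data known.

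Named members are, per comparison, the called genes that rose most and fell most (up to 5 each); the 5 highest and 5 lowest per kb; paralogs with parents; Rplp0, Rplp1, Rplp2, Rpsa, Rpl5, Rpl11, Rpl23, Rps6, Rps3 and Rps19; Rps19bp1; and from each list up to 4 called genes with the smallest p. The other called members, Rps27a, Rpl21, Itgax, the cell cycle markers and the gene copies were named after their values were seen. Alternatives were library totals, RLE factors, the members' sum as library size, no filter, DESeq2 1.42.0, only the compared groups, a replicate block, leaving out each library, and, after seeing the data, an Itgax term and the summed counts of Rps27 and Rps27rt. No pair of replicates agreed within sampling noise (lowest chi-square per gene 2.59), so no libraries were merged as repeats of each other.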

Additional observations from a re-analysis of the deposited data

How the results depend on the processing

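The count of members higher with Pg in cHet (15) moved to 3 with library totals, 7 with the members' sum as library size and 65 with the Itgax term, and ranged from 6 (without cHet control replicate 1) to 22 (without cKO control replicate 1) when single libraries were left out; it was 7 without cHet Pg replicate 1 and 8 without cHet control replicate 2. The count lower (1) was 6 with library totals and 0 to 1 without single libraries, and the median was -0.075 with library totals and 0.085 to 0.21 without single libraries. In cKO the count higher (0) was 1 without the filter, 2 with the Itgax term and 0 to 1 without single libraries. The count lower (0) was 28 with library totals, 2 with the members' sum, 2 without the filter, 1 by DESeq2, 1 with only the compared groups, 2 with the Itgax term and 0 to 4 without single libraries; the median was -0.26 with library totals and -0.10 to 0.049 without single libraries. For cKO against cHet in controls, 1 higher became 5 without the filter, 27 with the Itgax term and 1 to 3 without single libraries. Under Pg, 0 lower became 4 without the filter, 2 with only the compared groups, 14 with the Itgax term and 0 to 2 without single libraries. For the interaction, 0 lower became 11 without the filter, 1 by DESeq2, 27 with the Itgax term and 0 to 5 without single libraries. Rplp0 (-0.054), Rps25 (-0.007) and Rpl29 (-0.012) changed sign in cHet with library totals, as that scaling shifts all genes. Without the 5 members of highest level the share of counts was 1.57% in cKO Pg, 1.89% in cKO control, 1.63% in cHet Pg and 1.74% in cHet control. Rps10 kept its call between genotypes in all 20 alternatives. The cause of these shifts was otherwise not tested.

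Replicate numbers were shared between groups, and the labels state no pairing. Of 18 same-number pairs 5 correlated above 0.1 (-0.29 to 0.32), and 3 of 12 libraries correlated best with their own number. The library apart in Itgax was replicate 1 in every group but cKO Pg, where it was replicate 3. That split is part of these correlations, so they do not settle whether the numbers pair the libraries. With the replicate block, 13 members were higher and 1 lower with Pg in cHet, 0 and 0 in cKO, and 1 was higher in cKO controls. Rps10, Rpl27-ps3 and Rpl24 lie on few counts, where depth limits the precision.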
